A study of Mus musculus with 30 samples.

Results

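The step examined here is the last 3 h interval of a challenge of Nlrx1-deficient dendritic cells: 3 libraries collected 12 h after the addition of fungal conidia were compared with 3 libraries collected at 9 h. These are 6 of the 30 libraries of the series, chosen by their genotype and time labels alone. All 54532 genes of the deposited count table were considered, of which 12393 had enough counts to be tested. The cells were bone marrow derived dendritic cells (BMDC) of mice, grown for 6 days with the myeloid growth factor GM-CSF, which yields dendritic cells alongside macrophage-like cells. They were plated at 500000 cells per well and given 500000 viable conidia of Aspergillus fumigatus, strain AF29. The 9 h and 12 h groups therefore share genotype, culture, dose of conidia and plating, and differ in the time after challenge. The libraries of wild-type (WT) cells at 9 h and 12 h, also 3 each, serve as the comparison between genotypes. The sources used here state neither the age and sex of the mice nor which part of Nlrx1 was deleted. The labels do not say that replicates are separate animals or cultures. The p-values thus measure the spread between libraries of the same group, estimated over all 30 libraries, and this spread may be technical.

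Nlrx1 encodes a NOD-like receptor family member that resides at mitochondria and is known as a modulator of antiviral and NF-kappaB signalling. Aspergillus conidia swell and germinate in culture, which exposes beta-glucan to C-type lectin receptors such as Dectin-1 and leads through Syk, Card9 and Malt1 to NF-kappaB and MAP kinase signalling. Dendritic cells answer such signals with cytokines and chemokines and with a maturation programme. They also carry a protective NRF2 programme against oxidants and a sterol programme under SREBP control.

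Total counts ran from 2105254 to 3170156 in the 6 Nlrx1-deficient libraries of the step and from 2447460 to 3509429 in the 6 WT libraries. Levels are given in CPM, the counts of a gene scaled to a common library total. They are not corrected for gene length, so they are compared between libraries and not between genes. Changes are fitted log2 changes ± SE, and every adjusted p comes from the quasi-likelihood test of edgeR, corrected over the 12393 genes by the Benjamini-Hochberg method. Nlrx1 itself had 11, 8 and 0 counts at 9 h and 9, 14 and 3 counts at 12 h in the deficient cells, and its change of 0.55 ± 0.72 did not pass the test (adjusted p = 0.822). Its level in the WT libraries was 12.7, 8.76 and 13.8 CPM at 9 h and 9.41, 5.26 and 8.19 CPM at 12 h, above the 0 to 4.46 CPM of the 6 deficient libraries. The dendritic cell marker Itgax was present in each library of the step (1294 to 1397 CPM) and so was Zbtb46 (12.3 to 24 CPM), while Flt3 had 6 counts in all 6. Macrophage markers summed to 8595 to 9404 CPM at 9 h and to 8965 to 9442 CPM at 12 h. T and NK cell, B cell and plasmacytoid dendritic cell markers stayed under 74 CPM in sum in every library, with Ncr1, Cd79b, Cox6a2 and Klk1 at 0.

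Of the 12393 genes, 329 were higher at 12 h than at 9 h (2.65% of the genes tested) and 228 were lower (1.84%). Cytokine, chemokine, NF-kappaB feedback and immediate early genes were among the rises, and NRF2 targets, sterol synthesis genes and endoplasmic reticulum chaperones were among the falls. The median rise was 0.60 on the log2 scale, with 70 genes at 2-fold or more and 160 under 1.5-fold. The median fall was -0.46, with 23 genes at 2-fold or more and 157 under 1.5-fold. The count of calls depended on the fit: 557 genes in both directions fell to 285 without a count filter and to 257 when the 6 libraries were fitted alone.

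**Figure D1:**
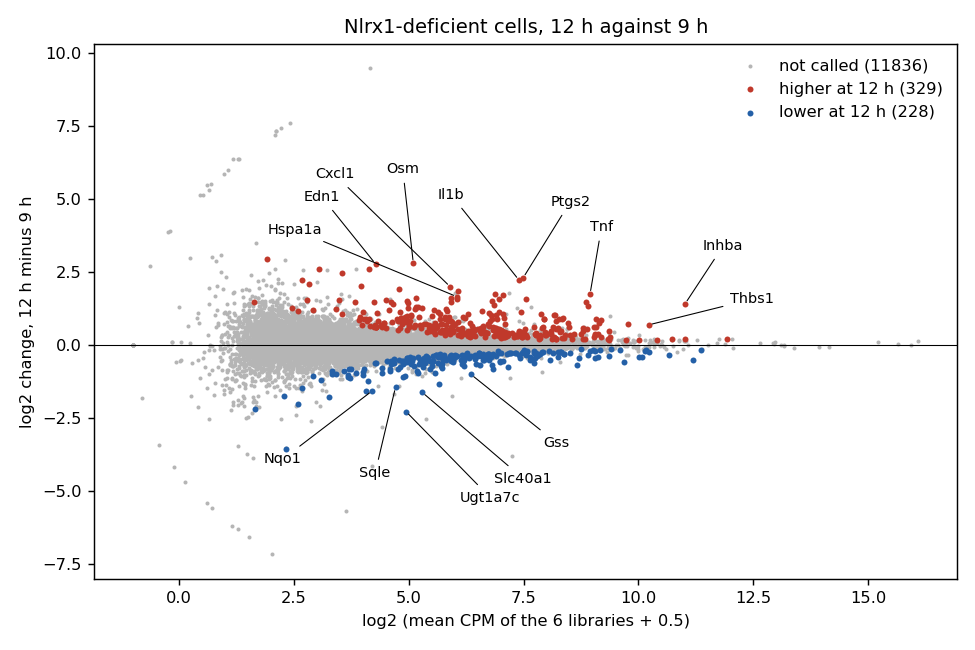
Fitted log2 change from 9 h to 12 h in Nlrx1-deficient cells (vertical axis) against the log2 of the mean CPM of the 6 libraries plus 0.5 (horizontal axis), 1 point per gene tested. The 329 genes that were higher at 12 h are red, the 228 lower ones blue and the 11836 others grey; the 26 genes with a fitted change of 4 or more in size are all grey.

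Inflammatory cytokines formed the group with the largest changes. Of 19 members tested, 10 rose and 0 fell, with a median change of 1.40 against 0.00 over all genes tested. Il1b, the precursor of the inflammasome-processed cytokine IL-1beta (ENSMUSG00000027398, chromosome 2, 129364570 to 129371139, GRCm38), stood at 59.9, 56.1 and 63.2 CPM at 9 h and at 262, 280 and 291 CPM at 12 h. The groups were far apart relative to their spread, and the change was 2.22 ± 0.09 (adjusted p = 2.52e-15). Tnf, the gene of the cytokine TNF (ENSMUSG00000024401, chromosome 17, 35199381 to 35202007), went from 233, 257 and 192 CPM to 754, 757 and 765 CPM (1.74 ± 0.10, adjusted p = 3.31e-12). Here the 9 h libraries varied more than the 12 h libraries, and still each 12 h library was well above them.

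Inhba, which encodes the activin A subunit, rose from 1095, 1341 and 974 CPM to 2890, 2936 and 3189 CPM (1.40 ± 0.08). Il1a, the sister cytokine of Il1b, rose from 243, 292 and 204 CPM to 666, 691 and 676 CPM (1.46 ± 0.11). In both genes replicate 2 was the highest of the 9 h libraries and still below every 12 h library. Members of the IL-6 cytokine family were low at 9 h. Osm went from 14, 6.51 and 4.54 CPM to 62.8, 63.5 and 51.4 CPM (2.79 ± 0.54), and Lif from 6.16, 8.32 and 3.3 CPM to 25.7, 21 and 26.4 CPM (2.01 ± 0.37). Hbegf, a growth factor of the EGF family, and Tnfsf15, a TNF family ligand, rose by 0.92 and 1.45.

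Il12b encodes the p40 chain shared by IL-12 and IL-23 and Il23a the p19 chain of IL-23. Il12b rose from 3.42, 4.7 and 2.07 CPM to 19.2, 22.3 and 15.7 CPM (2.46 ± 0.49, adjusted p = 0.0027). Il23a rested on few reads, with 6, 0 and 0 counts at 9 h and 8, 21 and 15 counts at 12 h. Its change of 2.92 ± 0.82 passed the test (adjusted p = 0.0435) but not in 6 of 10 alternatives, which are the analysis without a count filter and leaving out replicate 2 or 3 at 9 h or any library at 12 h (highest adjusted p 0.182). Il6, at 2.39, 1.45 and 0 CPM and then 7.41, 5.1 and 7.34 CPM, did not pass (2.26 ± 0.70, adjusted p = 0.0667).

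Chemokines followed, with 9 of 16 members higher, 0 lower and a median of 0.66. Among the ligands that attract neutrophils, Cxcl1 rose from 25.3, 24.6 and 21.5 CPM to 89.4, 93.4 and 102 CPM (1.99 ± 0.18, adjusted p = 1.66e-08). Cxcl2 rose from 267, 314 and 232 CPM to 706, 659 and 696 CPM (1.34 ± 0.10). Both genes separated the times without overlap, whereas their neighbour Cxcl3 was at 1034, 1262 and 1119 CPM and then at 1298, 1335 and 1222 CPM, with overlapping libraries (0.18 ± 0.08, adjusted p = 0.24). Among ligands for monocytes and T cells, Ccl3 rose by 0.87 ± 0.06, Ccl4 by 1.07 ± 0.09, Ccl2 by 0.62 ± 0.09 and Ccl22 by 0.87 ± 0.09. The interferon-induced Cxcl10 stood at 3.42, 1.81 and 1.65 CPM and then at 10.5, 5.42 and 3.42 CPM and did not pass (adjusted p = 0.13).

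Promoter windows from RefSeq (GRCm38.p6), 250 bases before to 50 bases after a gene's start, were at hand for 8529 of the genes tested, among them 246 rises and 181 falls. They were searched on both strands for a strict form of the NF-kappaB motif, which reads 3 G, any 3 bases, 2 T and 2 C. Of all 32851 windows, 5.56% held a match. Counted per gene, with a match in any of its windows, the share was 7.47% of the genes tested, 13.4% of the rises (33 of 246) and 3.31% of the falls (6 of 181). The share of windows and the shares of genes are therefore not counted alike. A match describes the letters and not a bound site. Matches did not go with the rise gene by gene: Cxcl3, which was not called, and Lipa, which fell, also hold one. Il1b, Tnf, Il1a, Ptgs2 and Inhba, which rose, hold none in their windows. The 250 bases before the start are shown for the neighbouring chemokine genes Cxcl1 (chr5:90890995-90891244, plus strand) and Cxcl2 (chr5:90903649-90903898, plus strand) and for the inhibitor gene Nfkbia (chr12:55492648-55492897, minus strand), since all 3 rose and all 3 hold matches. They are written 5′ to 3′, with the matches on either strand in capitals; overlapping matches run together.
Cxcl1: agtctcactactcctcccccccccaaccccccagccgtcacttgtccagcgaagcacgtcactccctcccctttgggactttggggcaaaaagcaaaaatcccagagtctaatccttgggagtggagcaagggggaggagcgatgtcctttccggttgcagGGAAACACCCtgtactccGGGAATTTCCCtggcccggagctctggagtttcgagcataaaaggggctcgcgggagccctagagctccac
Cxcl2: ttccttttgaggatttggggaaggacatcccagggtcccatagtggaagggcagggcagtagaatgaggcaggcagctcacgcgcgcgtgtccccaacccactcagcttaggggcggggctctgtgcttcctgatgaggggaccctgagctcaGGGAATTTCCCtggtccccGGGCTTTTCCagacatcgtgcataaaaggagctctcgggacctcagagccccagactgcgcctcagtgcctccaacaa
Nfkbia: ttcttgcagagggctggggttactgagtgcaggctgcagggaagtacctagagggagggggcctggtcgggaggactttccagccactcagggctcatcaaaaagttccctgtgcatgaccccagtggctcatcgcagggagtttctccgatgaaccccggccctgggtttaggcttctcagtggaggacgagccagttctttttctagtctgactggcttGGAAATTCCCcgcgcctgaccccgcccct

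NF-kappaB subunits and feedback genes moved in 1 direction, with 19 of 31 members higher, 0 lower and a median of 0.45. Nfkbia encodes IkappaBalpha, which holds NF-kappaB in the cytoplasm and is itself an NF-kappaB target. Its level went from 162, 197 and 152 CPM to 321, 312 and 321 CPM (0.90 ± 0.07, adjusted p = 3.64e-09), with no overlap. Of the subunits, Rel rose from 80.4, 83.9 and 88.4 CPM to 138, 131 and 122 CPM (0.63 ± 0.08) and Nfkb1 from 141, 170 and 140 CPM to 213, 224 and 222 CPM (0.54 ± 0.08). Tnfaip3, the gene of the ubiquitin-editing enzyme A20 that ends NF-kappaB signalling, rose from 162, 224 and 189 CPM to 391, 368 and 407 CPM (1.02 ± 0.15). Also higher at 12 h were Tnip3 (0.57), Socs3 (0.66) and the survival gene Bcl2a1d (0.40), whose reads may be shared with near-identical Bcl2a1 copies. The count of members called fell from 19 to 12 without a count filter.

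Immediate early transcription factors, which are induced within minutes of receptor signalling, counted 15 of 27 members higher and 0 lower (median 0.58). Egr1 rose from 95.4, 105 and 81.8 CPM to 290, 279 and 279 CPM (1.58 ± 0.09, adjusted p = 3.4e-12). Nr4a1, an orphan nuclear receptor, rose from 14.7, 12.7 and 6.2 CPM to 43.1, 44.6 and 41.1 CPM (1.92 ± 0.38) and its relative Nr4a3 by 1.35 ± 0.14. In the AP-1 family, Junb rose by 1.13 ± 0.10, Fos by 0.83 ± 0.11 and Fosl2 by 0.61 ± 0.07. Atf3, a stress-induced repressor, was at 451, 469 and 408 CPM and then at 479, 463 and 504 CPM and overlapped (0.12 ± 0.07, adjusted p = 0.397). Of the MAP kinase phosphatases and mRNA decay factors, which switch off such signals, 5 of 19 rose and 0 fell (median 0.67). Dusp1 went from 79.4, 76.7 and 81.8 CPM to 173, 164 and 141 CPM (1.01 ± 0.11) and Dusp4 from 20.9, 23.9 and 20.7 CPM to 39.7, 46.6 and 43 CPM (0.98 ± 0.14). The calls of the other 3, Dusp5, Dusp16 and Zc3h12c, ended in some alternatives, and 3 members were called without replicate 3 at either time or without a count filter. Junb and Dusp1 overlap genes on the other strand, Prdx2 and Ergic1, and the sources do not say whether counting used strand.

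The receptors and adaptors of fungal recognition were mostly level, with 4 of 30 members higher, 0 lower and a median of 0.00. Those that rose were the soluble pattern receptor Ptx3 (230 ± 13.1 to 430 ± 15.6 CPM, SD, n = 3), the co-receptor Cd14 (85.6 ± 7.63 to 179 ± 9.25 CPM), the adaptor protease Malt1 (422 ± 46.5 to 703 ± 69.3 CPM) and Tlr2 (80.3 ± 6.69 to 131 ± 11.5 CPM). Clec7a, the gene of Dectin-1, was at 1108, 1130 and 1195 CPM and then at 1094, 1008 and 1039 CPM, and its change of -0.13 ± 0.05 did not pass (adjusted p = 0.137). Clec4e, which encodes Mincle, was at 87.2, 181 and 78.9 CPM and then at 282, 245 and 331 CPM. The 2 times did not overlap, but replicate 2 at 9 h stood apart from the other 2 and the change of 1.30 ± 0.39 missed the threshold (adjusted p = 0.0634). Clec4e passed in 2 of 12 alternatives. The count of fungal recognition genes that rose was 6 without replicate 2 at 9 h and 5 with DESeq2. Of 15 inflammasome genes tested, 2 rose: Il1b and the sensor Nlrp3, which went from 54.1, 56.4 and 53.7 CPM to 200, 167 and 175 CPM (1.72 ± 0.25, adjusted p = 6.98e-05). Of 19 genes of mitochondrial antiviral signalling and Nlrx1 partners, 2 rose, the RNA sensor gene Ddx58 (0.81 ± 0.21) and the kinase gene Ikbke (0.39 ± 0.11). Their calls ended in 6 and 7 of 12 alternatives, and 0 of the 19 were called without a count filter, in the fit of the 6 libraries alone, or without replicate 3 at 9 h, replicate 1 at 12 h or replicate 2 at 12 h. It was 1 without replicate 1 or 2 at 9 h and with the replicate number as a block.

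Genes of dendritic cell maturation and migration counted 9 of 24 higher and 0 lower (median 0.48). Ccr7, the receptor that guides mature dendritic cells to lymph nodes, rose from 19.5, 20.3 and 22.7 CPM to 52.3, 47.8 and 45 CPM (1.22 ± 0.21, adjusted p = 0.000361). Fscn1, an actin-bundling protein of mature dendritic cells, rose from 23.9, 21.3 and 17.8 CPM to 47.5, 47.8 and 59.2 CPM (1.28 ± 0.22), and the maturation marker Cd83 from 22.9, 23.9 and 17.4 CPM to 34.4, 46.6 and 50.4 CPM (1.03 ± 0.18). Marcksl1 rose by 0.95 ± 0.09. Of the genes of antigen presentation, 0 of 12 class II genes were called in either direction by edgeR or DESeq2 (median -0.03, lowest adjusted p 0.33 for Ifi30), and H2-Aa was at 238, 215 and 238 CPM and then at 217, 216 and 213 CPM (adjusted p = 0.523). Of 20 class I genes, 0 rose and 1 fell, the chaperone gene Pdia3 (-0.17, adjusted p = 0.0153). Without replicate 2 at 9 h 3 class I genes rose, and without replicate 3 at 12 h 2 rose. The count of falls was 0 without replicate 1 at 9 h, without replicate 2 at 12 h, without a count filter and in the fit of the 6 libraries alone.

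The type I interferon response is a group in which single libraries set the count. Its mean log2 CPM was 4.22, 4.86 and 3.98 at 9 h and 5.56, 5.11 and 4.51 at 12 h, so that replicate 2 at 9 h was above replicate 3 at 12 h. With all libraries 7 of 43 members rose and 0 fell (median 0.69). The count was 14 without replicate 2 at 9 h and 14 without replicate 3 at 12 h. It was 3 without replicate 1 at 9 h, 3 without replicate 3 at 9 h, 3 without replicate 1 at 12 h, 2 without a count filter and 1 in the fit of the 6 libraries alone. Ifit2, an interferon-induced translation inhibitor, was at 10.6, 25 and 17.4 CPM and then at 62.8, 65.1 and 30.8 CPM (1.60 ± 0.36, adjusted p = 0.00681; above the threshold without replicate 1 at 9 h, without a count filter and in the fit of the 6 libraries alone). Ifit1, at 8.55, 19.2 and 8.26 CPM and then 32.3, 22.3 and 14.2 CPM, overlapped and did not pass (adjusted p = 0.229). Slfn2, a Schlafen gene, kept the library order of the list's mean at each time, but its times did not overlap. At 357, 366 and 345 CPM and then 568, 520 and 505 CPM it rose by 0.58 ± 0.05 (adjusted p = 7.13e-09).

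Single genes outside these groups also rose. Ptgs2, the inducible cyclooxygenase, went from 56.8, 72.7 and 52.5 CPM to 293, 293 and 307 CPM (2.29 ± 0.18, adjusted p = 3.64e-09). Its list, prostaglandin and leukotriene synthesis, did not rise with it: of 14 members 1 rose and 1 fell, with a median of -0.10. The fall, of the receptor gene Ptger2 (-1.06, adjusted p = 0.0495), ended in 9 of 11 alternatives, among them without any 1 of the 3 libraries at 9 h and without replicate 1 or 3 at 12 h. The count of falls was 2 without replicate 2 at 12 h. Edn1, the gene of the vasoconstrictor endothelin 1, rose from 3.42, 5.43 and 5.78 CPM to 32.3, 34.1 and 32.8 CPM (2.76 ± 0.30). F3, tissue factor, rose from 59.5, 63 and 53.7 CPM to 168, 163 and 162 CPM (1.48 ± 0.11). In all 3 the 12 h libraries lay close together. Separation of the times was a condition for genes named by size or significance, so it is not a result for them. Gem, a small GTPase, rose by 1.84 ± 0.17, and Plk2, a stress-responsive kinase, from 677, 690 and 629 CPM to 1131, 1060 and 1086 CPM (0.72 ± 0.04, adjusted p = 1.18e-11).

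**Figure D2:**
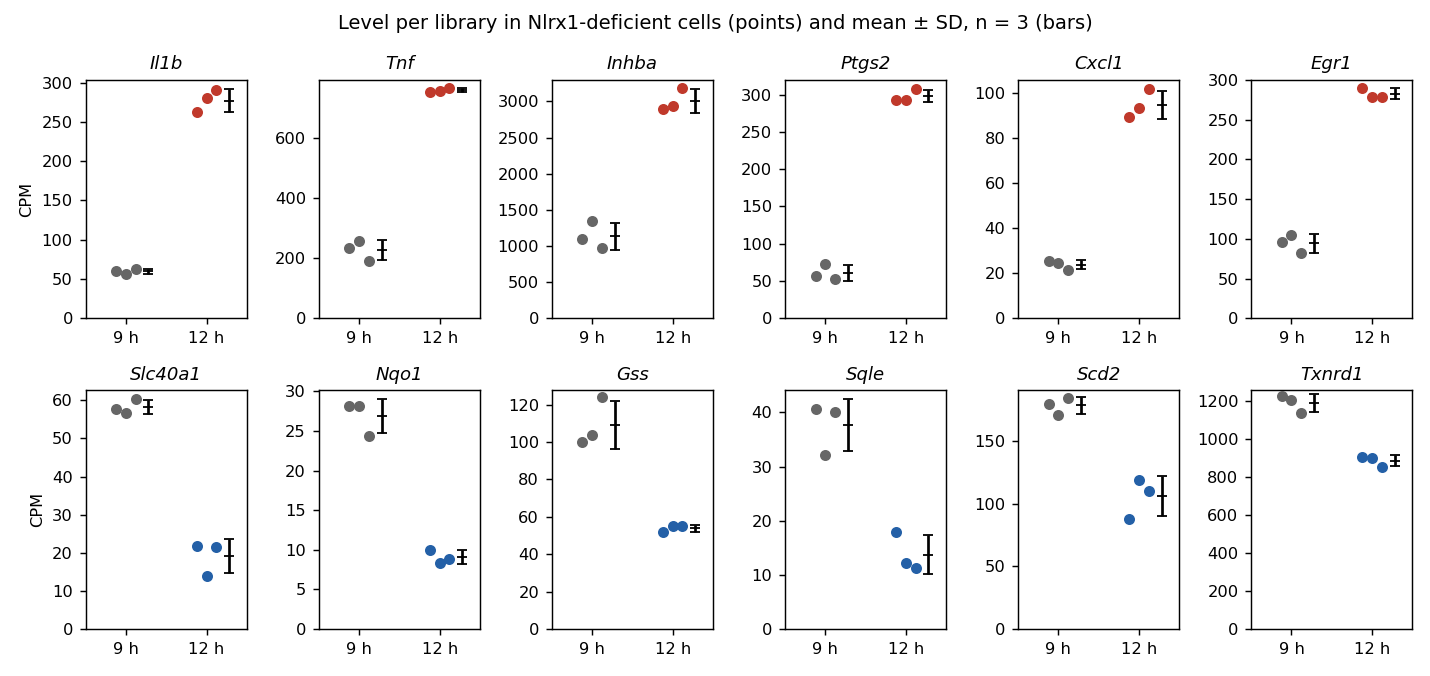
CPM (vertical axes, from 0) of 12 genes in each Nlrx1-deficient library at 9 h (grey) and 12 h (red where higher, blue where lower), with the mean ± SD of the 3 libraries as bars. In each of the 12 genes all 3 libraries at 12 h lie on 1 side of all 3 libraries at 9 h, as for Il1b (56.1 to 63.2 CPM, then 262 to 291 CPM) and Slc40a1 (56.8 to 60.3 CPM, then 14 to 21.8 CPM). Genes named by size or significance had to meet this condition.

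In the heat shock list 2 of 20 members rose and 1 fell (median -0.02). The fall, of the co-chaperone gene Ahsa1 (-0.38, adjusted p = 0.0224), ended in 6 of 12 alternatives: without replicate 3 at 9 h, without replicate 1 or 2 at 12 h, without a count filter, with DESeq2 and in the fit of the 6 libraries alone. The inducible Hsp70 genes Hspa1a and Hspa1b went from 31.7 ± 4.53 to 99.8 ± 3.23 CPM and from 32.9 ± 4.65 to 98.3 ± 5.86 CPM (SD, n = 3). They are near-identical copies whose reads cannot be assigned with certainty, so they count as 1 observation. Glycolysis and hypoxia genes rose in part. In glycolysis 4 of 24 rose and 0 fell (median -0.02), among them Hk2, hexokinase 2 (193 ± 12.7 to 295 ± 14.1 CPM), and the glucose transporter Slc2a1 (231 ± 11.3 to 318 ± 10.1 CPM). The other 2, Pfkl and Pfkfb3, were called in some alternatives only, and the count was 2 without a count filter, in the fit of the 6 libraries alone and without replicate 1 at 12 h. In the hypoxia list 4 of 20 rose and 0 fell (median 0.29), with Hif1a at 419, 411 and 406 CPM and then at 682, 630 and 587 CPM (0.62 ± 0.08) and its prolyl hydroxylase Egln3 at 22 ± 1.5 and then 38.9 ± 4.01 CPM. Of 29 genes of apoptosis and survival 4 rose and 0 fell, including the anti-apoptotic Mcl1 (0.38 ± 0.06). Of 29 cell cycle genes 3 rose and 0 fell (median -0.09): Ccnd1 (0.80 ± 0.14), Ccnd2 (0.46 ± 0.09) and Mki67 (0.52 ± 0.10). Without replicate 2 at 9 h or replicate 3 at 12 h 1 cell cycle gene fell.

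Among the falls, targets of NRF2 were the list with the most members. Of 29 tested, 13 fell and 1 rose, with a median of -0.39, and the list's mean log2 CPM was 7.36, 7.33 and 7.25 at 9 h and 6.95, 6.94 and 6.86 at 12 h. Nqo1, a quinone reductase, went from 28.1, 28.2 and 24.4 CPM to 10, 8.29 and 8.8 CPM (-1.58 ± 0.20, adjusted p = 3.31e-06). Txnrd1, thioredoxin reductase (ENSMUSG00000020250, chromosome 10, 82833951 to 82897712), went from 1230, 1206 and 1140 CPM to 905, 902 and 856 CPM (-0.42 ± 0.04, adjusted p = 1.2e-07). Both were lower in each 12 h library than in any 9 h library.

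Hmox1, the haem-degrading enzyme, fell from 1253, 1233 and 1211 CPM to 924, 938 and 898 CPM (-0.42 ± 0.06). Pgd and G6pdx encode enzymes of the pentose phosphate pathway, which supplies NADPH. Pgd fell from 628, 624 and 610 CPM to 454, 463 and 431 CPM (-0.46 ± 0.04) and G6pdx from 238, 252 and 261 CPM to 190, 195 and 185 CPM (-0.39 ± 0.05). In glutathione supply, the cystine transporter Slc7a11 fell from 1213 ± 21.4 to 1038 ± 32.1 CPM (-0.22 ± 0.03). Gss, glutathione synthetase, which is outside the NRF2 list, fell from 99.9, 104 and 124 CPM to 51.9, 54.9 and 54.8 CPM (-1.02 ± 0.10, adjusted p = 6.2e-08). The 1 member that rose was Nfe2l2, the gene of NRF2 itself, at 247, 240 and 240 CPM and then 362, 357 and 367 CPM (0.58 ± 0.06, adjusted p = 4.57e-08). Gss and G6pdx overlap Acss2 and Ikbkg on the other strand, and Txnrd1 overlaps Eid3 on its own strand, which had 363 counts against 16342 in the 6 libraries.

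The core of the antioxidant response element, TGACNNNGC on either strand, stood in 12.4% of all promoter windows. Counted per gene, with a match in any of its windows, the share was 17.1% of the genes tested, 15.5% of the falls and 20.3% of the rises. The share among falls was below that among the genes tested. One of the Txnrd1 windows (chr10:82858956-82859205, plus strand, 250 bases before the start) is shown with its match in capitals, since Txnrd1 is among the 13 targets that fell.
Txnrd1: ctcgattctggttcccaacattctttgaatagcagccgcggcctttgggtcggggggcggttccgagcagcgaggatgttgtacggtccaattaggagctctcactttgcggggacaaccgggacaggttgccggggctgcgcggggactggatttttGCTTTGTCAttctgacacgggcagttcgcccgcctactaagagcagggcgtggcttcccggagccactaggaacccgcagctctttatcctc

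Sterol genes fell as a group as well. Of 22 genes of cholesterol synthesis and uptake, 9 fell and 0 rose (median -0.52), and their summed level was 822 to 892 CPM at 9 h and 587 to 613 CPM at 12 h. Sqle, squalene epoxidase, went from 40.7, 32.2 and 40.1 CPM to 17.9, 12.1 and 11.2 CPM (-1.46 ± 0.18, adjusted p = 3.82e-06). The 12 h libraries all lay below the 9 h libraries. Insig1, a sensor of the same pathway, was at 44.5, 30 and 43.4 CPM and then at 37.9, 34.4 and 48.4 CPM and overlapped (adjusted p = 0.999). The count of 9 became 5 without replicate 1 or 3 at 9 h or replicate 1 at 12 h, and 3 in the fit of the 6 libraries alone. In the list of cholesterol efflux and LXR targets, 1 of 12 rose and 3 fell. The riser was Abca1, the cholesterol exporter, from 196, 200 and 175 CPM to 348, 434 and 362 CPM (1.01 ± 0.08, adjusted p = 9.04e-10). Scd2, a fatty acid desaturase, fell from 180, 171 and 185 CPM to 88, 119 and 110 CPM (-0.75 ± 0.09), while the calls of Fasn and Srebf1 ended in 6 and 8 of 12 alternatives, and 2 of the list, in place of 4, were called without replicate 2 at 9 h, without replicate 3 at 12 h, without a count filter and in the fit of the 6 libraries alone.

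Of 29 genes of the unfolded protein and integrated stress response 7 fell and 0 rose (median -0.12). Pdia4, a protein disulfide isomerase, went from 758, 721 and 742 CPM to 586, 567 and 548 CPM (-0.39 ± 0.05), Creld2 from 69.4, 58.6 and 69.8 CPM to 35.3, 40.2 and 38.6 CPM (-0.79 ± 0.11) and Pdia6 from 257 ± 11.9 to 205 ± 3.62 CPM. The stress cytokine Gdf15, at 26, 25.7 and 19.8 CPM and then 32.3, 31.9 and 32.3 CPM, was not called (adjusted p = 0.414). The count was 4 without replicate 1 at 12 h and 3 in the fit of the 6 libraries alone. In lipid uptake and lysosomal breakdown, Cd36, a scavenger receptor, fell from 1816 ± 11.4 to 1431 ± 53.2 CPM (-0.34 ± 0.04), and Lipa, the lysosomal acid lipase, from 925, 982 and 1062 CPM to 630, 635 and 726 CPM (-0.58 ± 0.07). Of the 35 lysosomal hydrolases and proton pump genes, 1 rose (2.86%, near the 2.65% of all genes tested) and 2 fell (5.71% against 1.84%). The rise, of the protease gene Ctsc, was lost without replicate 2 or 3 at 9 h, without replicate 2 at 12 h, without a count filter and in the fit of the 6 libraries alone, and the falls became 1 without replicate 2 at 9 h and in that last fit.

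Iron and metal genes split. Slc40a1, the iron exporter ferroportin (ENSMUSG00000025993, chromosome 1, 45908068 to 45926523), fell from 57.8, 56.8 and 60.3 CPM to 21.8, 14 and 21.5 CPM (-1.63 ± 0.16, adjusted p = 4.3e-08), the 1 fall among 17 members. The count of falls was 2 without replicate 3 at 9 h, without replicate 1 or 2 at 12 h, with the replicate number as a block and without small RNA genes. The metallothioneins, which bind zinc and copper, rose: Mt2 from 47.9 ± 2.03 to 77.5 ± 2.94 CPM (0.69 ± 0.12) and Mt1 from 221 ± 3.69 to 280 ± 11.1 CPM (0.35 ± 0.07; adjusted p = 0.0657 without a count filter). Other falls with small p-values were Nrp1, a semaphorin co-receptor (-0.54 ± 0.05), Ptpn1, a tyrosine phosphatase (-0.69 ± 0.06), Nampt, an enzyme of NAD synthesis (-0.52 ± 0.06), and Rassf4 (-0.44 ± 0.05).

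By size, the largest fall was that of Lbhd1, at 21, 14 and 32 counts and then 0, 5 and 0 counts (-3.58 ± 0.92, adjusted p = 0.0221). Its call ended in 5 alternatives, among them without replicate 3 at 9 h or replicate 1 or 3 at 12 h, and it overlaps other transcripts on its strand. Ugt1a7c, a glucuronosyltransferase, was at 46.5, 45.2 and 58.7 CPM and then at 7.41, 10.2 and 13.2 CPM (-2.29 ± 0.42, adjusted p = 0.00137), a call that held in every alternative run. It shares exons with the other genes of the Ugt1a locus, so the split of reads between them is uncertain. In WT cells Ugt1a7c was at 30.2, 52.9 and 43.3 CPM at 9 h and at 42.9, 51.4 and 40.5 CPM at 12 h, and the difference between the steps of -2.38 ± 0.54 missed the threshold (adjusted p = 0.0729).

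Markers of neutrophils, cells that GM-CSF cultures of marrow can hold, were lower at 12 h in part. Of 11 tested, 2 fell and 0 rose (median -0.12). S100a9 went from 131, 137 and 150 CPM to 88.9, 81 and 88 CPM (-0.70 ± 0.14), and S100a8, its partner, from 74.2, 70.6 and 77.7 CPM to 47.5, 49.4 and 50.4 CPM (-0.59 ± 0.15, adjusted p = 0.0161; its call ended without replicate 3 at 9 h or without replicate 1 or 2 at 12 h). The count was 1 without replicate 3 at 9 h or replicate 2 at 12 h. The 15 markers summed to 1226 to 1332 CPM at 9 h and to 1113 to 1133 CPM at 12 h, a summed level that did not overlap between the times. Of the other defining markers, Ngp was at 40.4, 53.5 and 40.5 CPM and then at 38.4, 28.1 and 30.3 CPM (adjusted p = 0.0701) and Ltf at 14.4, 21.3 and 16.9 CPM and then at 21.4, 19.1 and 29.8 CPM (adjusted p = 0.446). Ly6g and Camp were near 0, with 6 and 10 counts in all 6 libraries. In bulk RNA fewer cells of a type and less RNA per cell cannot be told apart, and the part of other cells in the changes described was not tested.

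Several groups showed few or no calls. Of 48 nuclear-encoded respiratory chain genes 1 rose, of 65 cytosolic ribosomal protein genes 1 fell, and of 36 ribosome biogenesis genes 1 rose, each near the share of all genes. The respiratory chain count was 0 with any 1 of the 6 libraries left out. That of ribosome biogenesis was 0 without replicate 2 or 3 at 9 h (then with 1 fall without replicate 3) and without replicate 1 or 2 at 12 h. That of ribosomal proteins was 2 without replicate 2 at 9 h or at 12 h and 0 without replicate 1 at 12 h. Among the 13 mitochondrially encoded transcripts and 27 replication-dependent histone genes 0 were called by edgeR or DESeq2 (lowest adjusted p 0.0959 for mt-Co1 and 0.166 for Hist1h4i), and 1 mitochondrially encoded transcript was called without replicate 2 at 9 h. Of 265 structural and small RNA genes 14 rose and 0 fell. The largest of these was the 5S ribosomal RNA gene n-R5s185, at 2.74, 6.15 and 5.78 CPM and then 29.6, 30.3 and 28.4 CPM, which lies within Tmem38b. Shares of counts cover a narrower class of small RNA genes, which leaves out ribosomal RNA among others. The share of all counts in that narrower class was 3.42% ± 0.302 at 9 h and 3.33% ± 0.177 at 12 h (SD, n = 3, two-sided exact permutation p = 0.8, smallest possible 0.1).

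**Figure D3:**
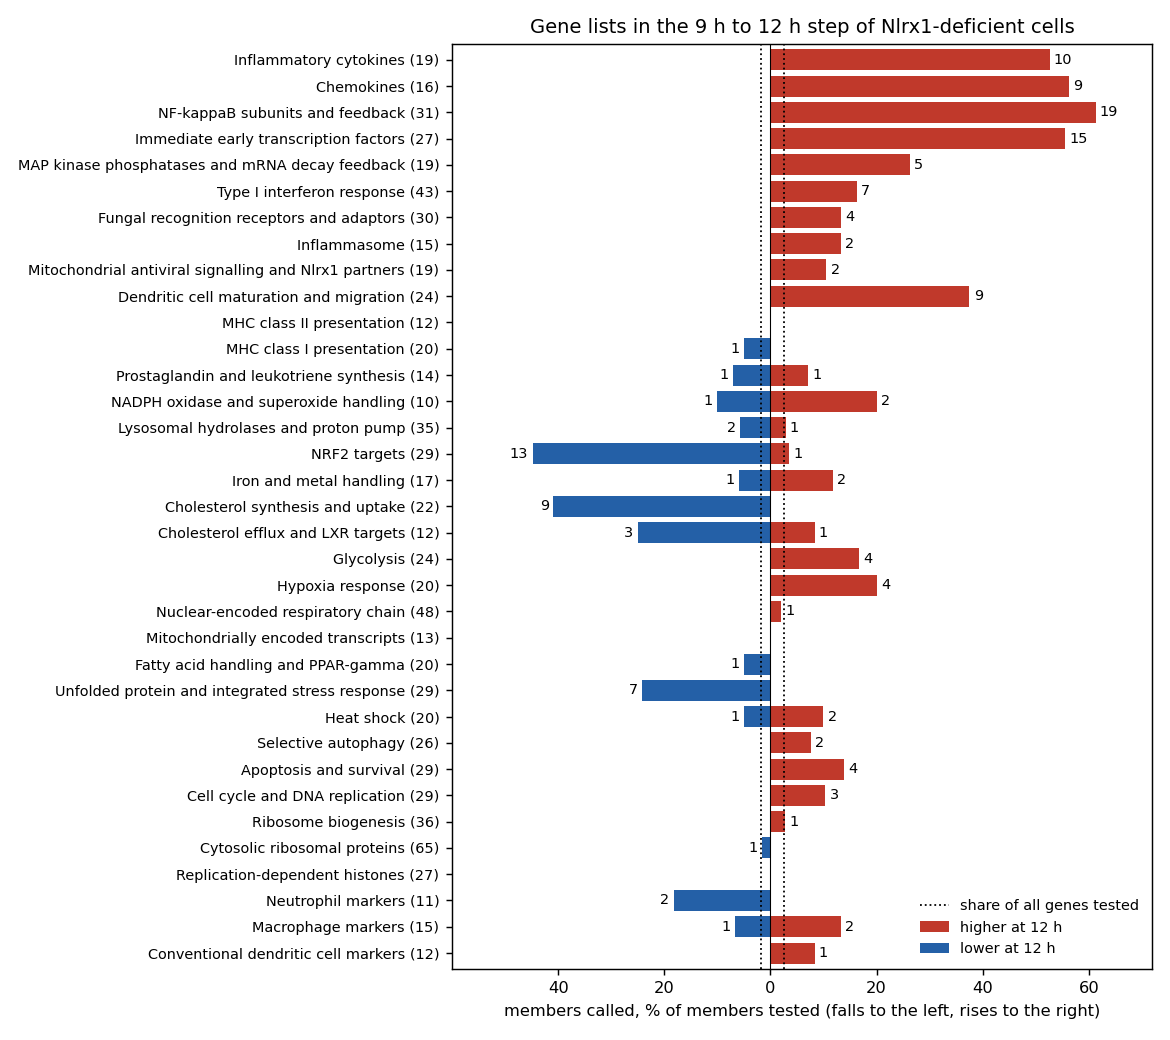
Share of the tested members of each gene list (number tested in brackets) that were higher at 12 h (red, to the right) or lower (blue, to the left) in Nlrx1-deficient cells, in %, with the number of genes at the end of each bar. Dotted lines mark the 2.65% of all genes tested that were higher and the 1.84% that were lower; the 19 NF-kappaB genes and the 13 NRF2 targets reach far past them.

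The levels at the earlier times, given here without a test because the 9 h libraries belong to both intervals, place the step in the course of the challenge. Mean Il1b was 51.7, 47.5 and 30.9 CPM at 0, 3 and 6 h, 59.7 CPM at 9 h and 277 CPM at 12 h, and Tnf was 71.7, 82.8, 106, 227 and 759 CPM. Cxcl1 was at 3.16, 5.81 and 4.77 CPM before it reached 23.8 and 94.8 CPM. Of the genes that fell in the step, 4 examples had higher means at 9 h than at any earlier time: Hmox1 at 407, 683, 879 and 1232 CPM before 920 CPM, Txnrd1 at 704, 790, 937 and 1192 CPM before 888 CPM, Slc40a1 at 14, 24.1, 43.7 and 58.3 CPM before 19.1 CPM, and Sqle at 23.7, 24.6, 30.9 and 37.7 CPM before 13.7 CPM. At 12 h Hmox1, Txnrd1 and Slc40a1 were above their 0 h means and Sqle was below its own.

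**Figure D4:**
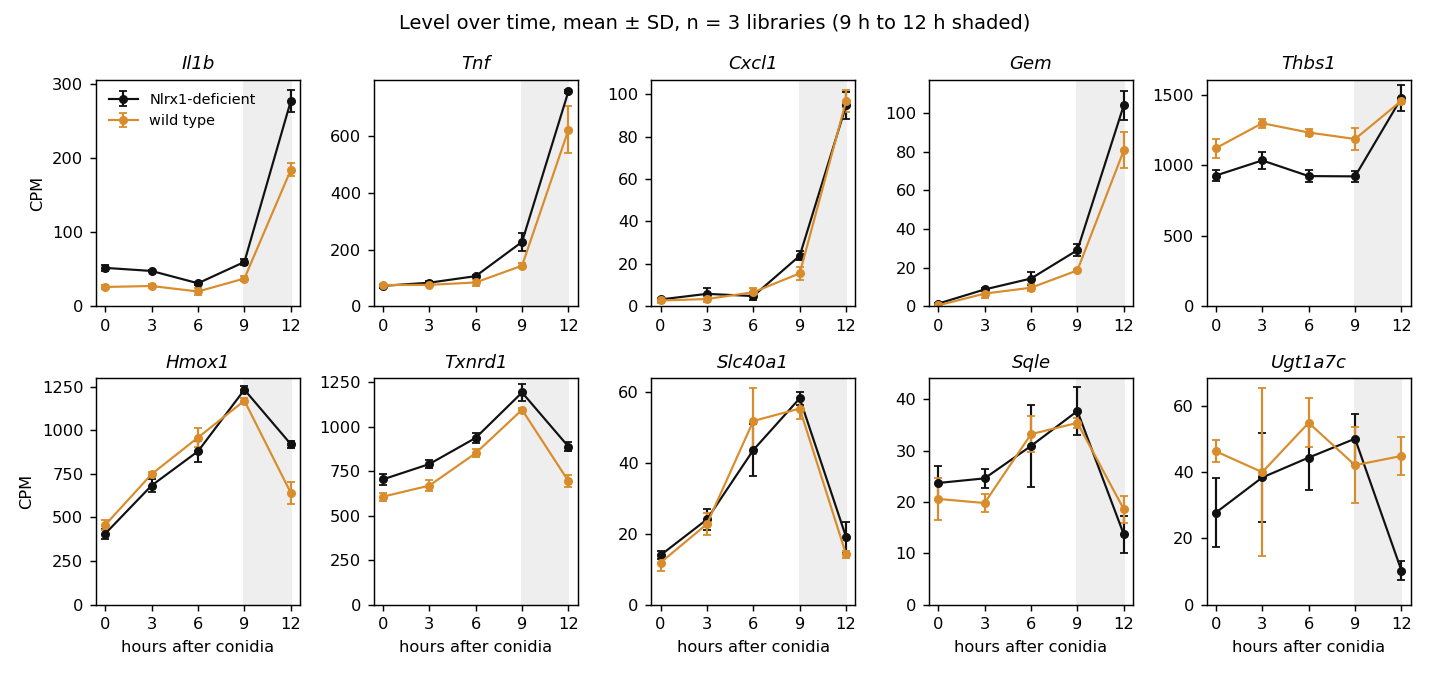
Mean CPM ± SD (n = 3 libraries, vertical axes from 0) of 10 genes at 0, 3, 6, 9 and 12 h after conidia (horizontal axes) in Nlrx1-deficient (black) and wild-type cells (orange), with the 9 h to 12 h step shaded. Il1b, Tnf, Cxcl1 and Gem are highest at 12 h in both genotypes, Hmox1 and Txnrd1 are highest at 9 h in both, and Ugt1a7c is lower at 12 h in the deficient cells (10.3 CPM).

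The same interval in WT cells gave 640 rises (5.16% of genes tested) and 665 falls (5.37%). Of the 329 rises in deficient cells 217 also rose in WT cells, which is 66% of the former and 33.9% of the latter, and 0 fell. Of the 228 falls 146 also fell in WT cells (64% and 22%), and 0 rose. A larger number of calls in WT cells is not in itself a difference between genotypes. The difference between the steps was therefore tested gene by gene. In that test a change in the composition of the WT 12 h libraries cannot be told apart from genotype. That test called 27 genes (0.218%), 18 with the change in deficient cells above that in WT cells and 9 below it, with 1167 genes at an unadjusted p under 0.05. Of the genes called in the step of the deficient cells, 5 of the rises and 1 of the falls were among the 27. For the cytokine Inhba the rise was smaller in deficient than in WT cells (1.40 against 2.02, difference -0.62 ± 0.12, adjusted p = 0.0201). WT libraries were at 614, 526 and 514 CPM at 9 h and at 2360, 2124 and 2221 CPM at 12 h, so the deficient cells started higher.

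Hmox1 fell less in deficient than in WT cells (-0.42 against -0.87, difference 0.44 ± 0.08, adjusted p = 0.0201), with WT libraries at 1173, 1151 and 1182 CPM and then at 711, 604 and 607 CPM. Thbs1, the matrix protein thrombospondin 1, rose more in deficient cells, from 912, 965 and 883 CPM to 1507, 1551 and 1370 CPM, against 1251, 1099 and 1206 CPM and then 1474, 1433 and 1463 CPM in WT cells (0.68 against 0.30, difference 0.38 ± 0.08, adjusted p = 0.0255). Both genotypes reached about the same level of Thbs1 at 12 h from different levels at 9 h. Map4k4, a kinase upstream of JNK, rose in deficient cells from 166, 148 and 169 CPM to 198, 210 and 197 CPM (0.33 ± 0.06) and was at 191, 196 and 176 CPM and then 164, 162 and 181 CPM in WT cells (difference 0.48 ± 0.08, adjusted p = 0.00563). The calls of these differences were fragile: that of Inhba ended in 8 of 18 alternatives, that of Hmox1 in 10 of 18, that of Thbs1 in 11 of 18 and that of Map4k4 in 2 of 17, and the libraries concerned are named with the other differences at the end.

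Genes that were level in deficient cells and moved in WT cells made up most of the rest. mt-Atp8, a mitochondrially encoded subunit of ATP synthase, was at 515, 623 and 593 CPM and then 608, 586 and 677 CPM in deficient cells, with overlap, and at 264, 228 and 216 CPM and then 428, 480 and 489 CPM in WT cells (difference -0.87 ± 0.11, adjusted p = 7.65e-05), a call that held in all 18 alternatives. Its coding sequence overlaps that of mt-Atp6, so reads may be split between them. Mean mt-Atp8 at 0, 3, 6, 9 and 12 h was 601, 573, 629, 577 and 624 CPM in deficient cells. In WT cells it was 278, 247, 301, 236 and 466 CPM, so the WT mean left its earlier range only at 12 h. The predicted small RNA gene Gm24270 was at 2922, 3486, 2940, 2866 and 1450 CPM in WT cells and at 1414, 1469, 1369, 1445 and 1398 CPM in deficient cells. All 13 mitochondrially encoded transcripts rose in the WT step. The ribosomal protein gene Rps7 was at 131, 115 and 137 CPM and then 130, 142 and 135 CPM in deficient cells and fell from 207, 235 and 207 CPM to 141, 159 and 161 CPM in WT cells (difference 0.58 ± 0.10, adjusted p = 0.00563; ended in 2 of 17 alternatives). Ribosomal protein reads may be shared with pseudogenes. Library composition moved in the WT step: the share of counts in small RNA genes went from 6.15% ± 0.522 to 3.92% ± 0.0923 and that in mitochondrially encoded genes from 0.976% ± 0.0467 to 1.27% ± 0.0647 (SD, n = 3, two-sided exact permutation p = 0.1 for each, the smallest possible). The latter share went from 1.54% ± 0.0782 to 1.66% ± 0.0762 in deficient cells. Of the 27 genes 6 were structural or small RNA genes, and the count was 17 when such genes were left out of the fit. The part of library composition in these differences was otherwise not tested. It cannot be told apart from genotype here, since all WT libraries at 12 h belong to the same group.

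**Figure D5:**
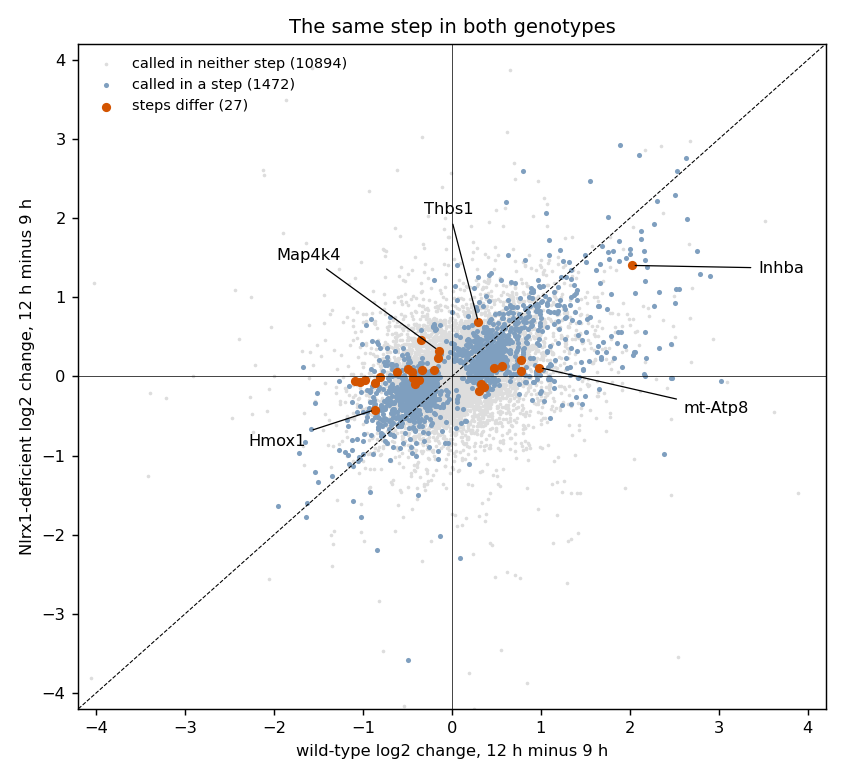
Log2 change from 9 h to 12 h in Nlrx1-deficient cells (vertical axis) against that in wild-type cells (horizontal axis), 1 point per gene tested; blue points are called in at least 1 step, orange points are the 27 genes whose steps differ, and the dashed line marks equal changes. The axes end at 4.2 in each direction and 44 genes lie outside them; most orange points lie near 0 on the vertical axis, and Inhba (1.40 against 2.02) lies to the right of the line.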

How the data were processed

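RNA was sequenced in 30 libraries of 10 groups (2 genotypes, 5 times, 3 libraries each). The authors deposited 1 table of whole-number read counts per gene, made, per the submitters' processing notes, with Trimmomatic 0.35, HISAT2 and StringTie on GRCm38. The notes do not tell how counts were derived from StringTie. Columns were matched to samples by the description given for each sample, and 0 columns were left unmapped. Gene positions are from GENCODE on GRCm38.

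Counts were fitted with edgeR 4.0.16 (R 4.3.3), with 1 coefficient per group over all 30 libraries, TMM scaling, filterByExpr at a minimum count of 10 (98.66% of counts kept), a robust quasi-likelihood F-test with 20 residual degrees of freedom and Benjamini-Hochberg adjustment at 0.05. The biological coefficient of variation was 13.7%. The 9 h to 12 h step was tested in each genotype, and the difference between the steps as a contrast. The code was tested on simulated data. Alternatives were other size factors, no count filter, a replicate block and no structural or small RNA genes. Further alternatives were only the libraries compared, DESeq2 1.42.0 and each library left out in turn. The authors' own tables of fold changes were not used.

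The members and gene lists were chosen with earlier results of these data known. Genes were named by these rules: a fixed set of response genes; the 12 largest and the 12 most significant rises and falls whose libraries did not overlap and whose higher mean reached 5 CPM; up to 6 called members of each list; and the 12 genes in each direction whose steps differed. For genes named by size or significance the lack of overlap between the times was thus set by the rule. Ifi30, mt-Co1, Hist1h4i, Sept2, Kctd12 and Gm15564 were chosen after their values were seen, and overlapping neighbours are named for their position.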

Additional observations from a re-analysis of the deposited data

Results flagged for a closer look

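The following genes stand out because their change from 9 h to 12 h differed between Nlrx1-deficient and WT cells in the test of the difference itself (edgeR, deficient minus WT, log2). Below 0 were mt-Atp8 (-0.87), Inhba (-0.62), Rps26 (-0.49), Olfm1 (-0.49), Ccdc88a (-0.44), Selenot (-0.42) and mt-Co3 (-0.37). Above 0 were Rps7 (0.58), Rpl37 (0.50), Map4k4 (0.48), Hmox1 (0.44), Thbs1 (0.38) and Rplp0 (0.33). These are 13 of the 27 genes whose steps differed. Of the other 14, 9 are predicted gene models and 5 fell outside the rule for named genes. Some of the 14 had larger differences than those above: the models Gm25911 (1.03), Gm24187 (0.96) and Gm24270 (0.94), annotated as small RNA genes, held in all 17 alternatives, and Acox3 (0.80, chosen after its values were seen) lost its call in 13 of 17.

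Ccdc88a, which encodes the actin-binding protein girdin, was at 380, 401 and 377 CPM and then 395, 435 and 434 CPM in deficient cells, and at 229, 235 and 248 CPM and then 346, 352 and 356 CPM in WT cells (adjusted p = 0.0206). The deficient libraries overlapped and the WT libraries did not. Of the 4 ribosomal protein genes, Rps7, Rpl37 and Rplp0 fell in WT cells and Rps26 rose, while 0 of the 4 passed the test in deficient cells.

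The call of mt-Atp8 held in all 18 alternatives. Those of Map4k4 and Rps7 ended in 2 of 17, without a count filter and with only the libraries compared. That of Inhba ended without replicate 2 at 9 h or replicate 1 or 2 at 12 h of the deficient cells, and without replicate 2 or 3 at 9 h or replicate 1 at 12 h of WT cells. That of Hmox1 ended without replicate 2 or 3 at 9 h or replicate 1 or 2 at 12 h of the deficient cells, and without replicate 2 or 3 at either time of WT cells. That of Thbs1 ended without replicate 1 or 3 at 9 h or replicate 1 or 2 at 12 h of the deficient cells, and without replicate 1 or 3 at 9 h or any library at 12 h of WT cells. All 3 also ended without a count filter and with only the libraries compared.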

How the results depend on the processing

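The 557 calls of the step in deficient cells became 285 without a count filter and 257 in the fit of its 6 libraries alone, and 380 to 511 with 1 library left out. The 1305 calls in WT cells became 832 without a filter and 865 to 1046 with 1 library left out, the lowest without replicate 3 at 9 h. The 27 differences between steps became 6 without a filter, 17 without small RNA genes, 8 with only the libraries compared and 12 to 36 with 1 library left out (12 without replicate 2 at 12 h of deficient cells or replicate 2 at 9 h of WT cells). With DESeq2 they became 60, but its adjustment ran over 619 genes against 12393 in the main fit, so the 2 counts are not on the same footing. At an unadjusted p under 0.05 DESeq2 had 792 genes and edgeR 1167. In the other alternatives these counts stayed within 1.5 times, and 0 named results reversed. At this depth genes of few counts, such as Il23a, change their call with single libraries.

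With the replicate number as a replicate block the counts were 527, 1252 and 25. Libraries with the same number did not deviate together (correlations -0.0437, -0.0226 and 0.0161 in deficient cells, -0.045, -0.0355 and 0.00844 in WT cells), so the numbers were not taken to pair the libraries.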

Other observations

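In 6 genes at least 1 library had 0 counts while another library of the same time had 100 or more. In deficient cells Sept2, a septin gene, had 528, 433 and 0 counts at 9 h and 257, 0 and 211 counts at 12 h. Kctd12 had 955, 886 and 0 counts at 9 h. The antisense transcript Gm15564 had 0, 2934 and 2720 counts at 9 h and 2763, 2439 and 0 counts at 12 h. Of these 6 genes, and of the 26 genes with a fitted change of 4 or more on the log2 scale, 0 passed the test.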
